A study of Homo sapiens with 6 samples.

Results

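DNA damage signalling and repair genes were examined in MM.1S, a long-established line of human myeloma cells, after silencing of PRMT1, the main enzyme that places asymmetric dimethylarginine on proteins. The genes were taken by symbol from the deposited table. A list of 53 symbols covering damage signalling, homologous recombination, the Fanconi anaemia pathway, end joining and single-strand break repair was matched to the gene names, and each symbol matched 1 of the 58735 genes listed. Expression was given as FPKM, fragments per unit of gene length, scaled by the size of the library. Of the 53 genes, 51 had a mean of at least 1 FPKM over the libraries and were tested among 13585 such genes. RAD50 and NHEJ1 fell under that level.

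RNA sequencing was carried out on 3 libraries of cells given the control siRNA si-NC and 3 of cells given si-PRMT1, here called PRMT1 KD for knockdown. All cells were MM.1S and had been transiently transfected with 100 nM siRNA for 72 h. Which PRMT1 siRNA was used for the sequencing is not named in the sources used here, and loss of PRMT1 and off-target effects of the siRNA cannot be told apart. The study's methods describe dependent biological replicates, and the labels do not say that replicates were separate cultures, so p-values measure the spread between these libraries, which may be technical. The question addressed was whether transcripts of the damage response and repair machinery differed between PRMT1 KD and control cells. In bulk RNA, a difference in the share of cells in a given state and a difference in RNA per cell cannot be told apart.

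PRMT1 itself was at 61.7, 62.8 and 58.9 FPKM in the control libraries and at 13.3, 14.0 and 12.5 FPKM in the PRMT1 KD libraries. It fell by 2.13 on the log2 scale (limma adjusted p = 2.77e-05) and matched the labels in 6 of 6 libraries. Reads on genes came to between 16064769 and 16465026 in the control libraries and between 14439217 and 16313196 in the PRMT1 KD libraries. All 8 plasma cell markers were expressed, with JCHAIN at 520 FPKM, XBP1 at 274 FPKM and SDC1 at 51.1 FPKM on average. Their summed level was 1237 to 1318 FPKM in control and 1210 to 1390 FPKM in PRMT1 KD libraries. Of them, SLAMF7, a surface antigen of myeloma cells, fell from 38.0 ± 0.961 to 23.8 ± 1.17 FPKM (SD, n = 3 each, limma adjusted p = 0.00515). The B cell marker MS4A1 was listed at 0 in all 6 libraries, and each of 4 myeloid markers averaged below 1 FPKM. Of 4 T cell markers, CD3E and CD3G had a mean of at least 1 FPKM, with CD3E at 32.1 to 39.0 FPKM. CD3D averaged 0.405 FPKM and CD2 0.00616 FPKM.

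When DNA breaks, the MRE11-RAD50-NBN complex and the Ku heterodimer bind the ends, and the kinases ATM, ATR and DNA-PK spread the signal through the checkpoint kinases and through ubiquitin marks on chromatin. Ends are then either resected and copied from the sister chromatid by homologous recombination, which needs BRCA1, BRCA2 and their partners, or joined directly. The Fanconi anaemia pathway clears crosslinks between the strands, and PARP1, XRCC1 and LIG3 mend nicks. PRMT1 is known to methylate MRE11 and TP53BP1 proteins in their glycine- and arginine-rich stretches, a modification that mRNA levels do not report. B cells on the way to plasma cells pass through programmed breaks of the immunoglobulin genes, which end joining repairs.

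Transcript levels spanned a wide range before any comparison. XRCC6 and XRCC5, the Ku subunits, had the highest levels, with means of 155 and 79.1 FPKM over the 6 libraries, followed by PRKDC at 58.6, RPA1 at 53.7 and PARP1 at 48.7 FPKM. In every library XRCC6 was above XRCC5, 143 FPKM or more against 90.2 FPKM or less. Of the members tested, 12 lay between 1 and 5 FPKM, 17 between 5 and 10, 18 between 10 and 50, and 4 at 50 FPKM or over. Their median level was 8.89 FPKM, against 6.31 FPKM for all genes tested. The lowest were RAD50 and NHEJ1. RAD50, the long coiled-coil subunit that tethers broken ends, was at 0.735, 0.774 and 0.898 FPKM in control and at 0.967, 0.690 and 0.786 FPKM in PRMT1 KD libraries. NHEJ1, a bridging factor of end joining, had between 0 and 4 reads in a library, and in 2 PRMT1 KD libraries it was listed at 0. In the gene annotation, 79.7% of the exon bases of RAD50 and 65.4% of those of NHEJ1 also belong to another gene on the same strand. How reads on shared bases were counted is not given in the sources used here, so these levels may not stand for the level of the transcript. Over all members, 32 of 53 shared some exon bases with another gene, and 3 (RAD50, NHEJ1 and XRCC3) shared over 50%.

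**Figure D1:**
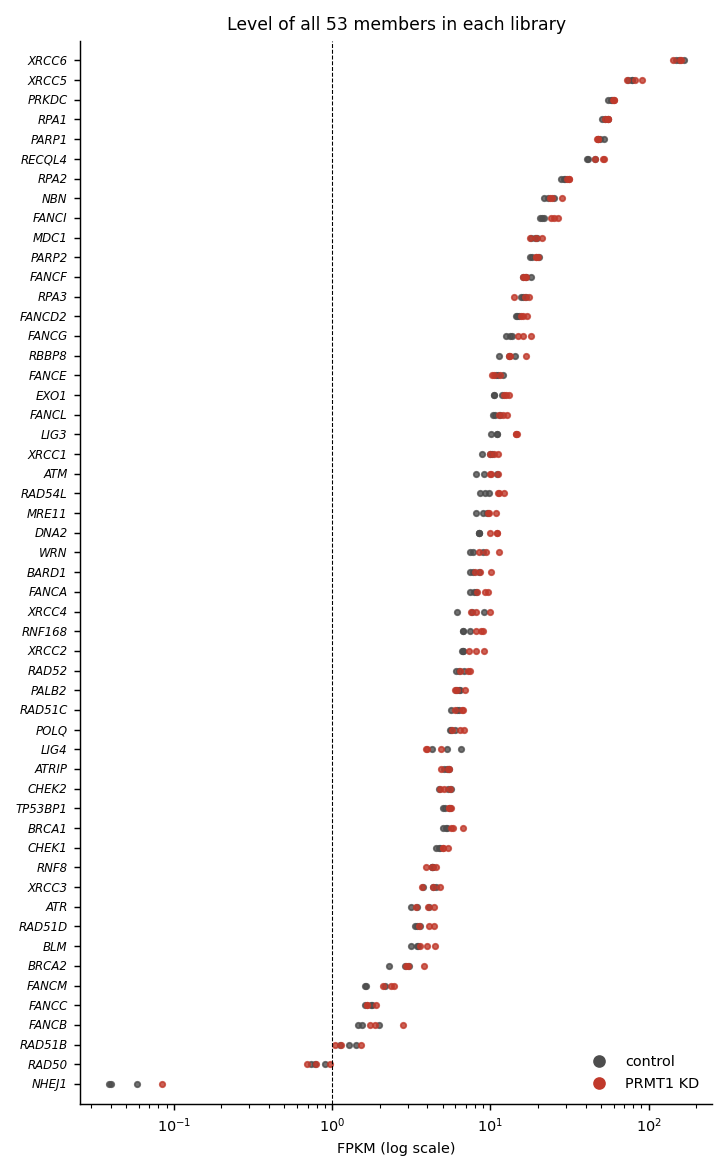
FPKM of each of the 53 genes in each of the 6 libraries on a logarithmic axis, ordered by mean level in the control libraries. Control libraries are in grey and PRMT1 KD libraries in red. XRCC6 lies at the top between 143 and 166 FPKM, the broken line marks 1 FPKM, and only RAD50 and NHEJ1 have a mean below it. The 2 PRMT1 KD libraries in which NHEJ1 was listed at 0 have no point.

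After PRMT1 KD, only LIG3 passed the test among the 51 members: 1 member was higher and 0 were lower at an adjusted p under 0.05 (limma on log2(FPKM + 1), Benjamini-Hochberg over all genes tested). Of all 13585 genes, 2.05% passed that threshold in either direction and 1.07% were higher. At an unadjusted p under 0.05, 13 of the 51 members were higher and 0 lower, while 10.1% of all genes were higher and 9.47% lower. The control and PRMT1 KD values did not overlap for 17 members, and in all 17 the PRMT1 KD libraries were the higher ones. Among all genes 13.6% did not overlap with PRMT1 KD higher and 12.3% with PRMT1 KD lower. The log2 fold change was above 0 in 41 members and below 0 in 10, with 52.6% of all genes above 0. The median log2 fold change was 0.12 over the members and 0.0095 over all genes tested. Differences were small: estimates ran from -0.26 for LIG4 to 0.41 for LIG3, and the 95% intervals reached a median of 0.17 to each side of the estimate. Without replicate 3 of PRMT1 KD the median of the members was 0.079. Fold changes on log2(FPKM + 1) understate the change of low genes.

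**Figure D2:**
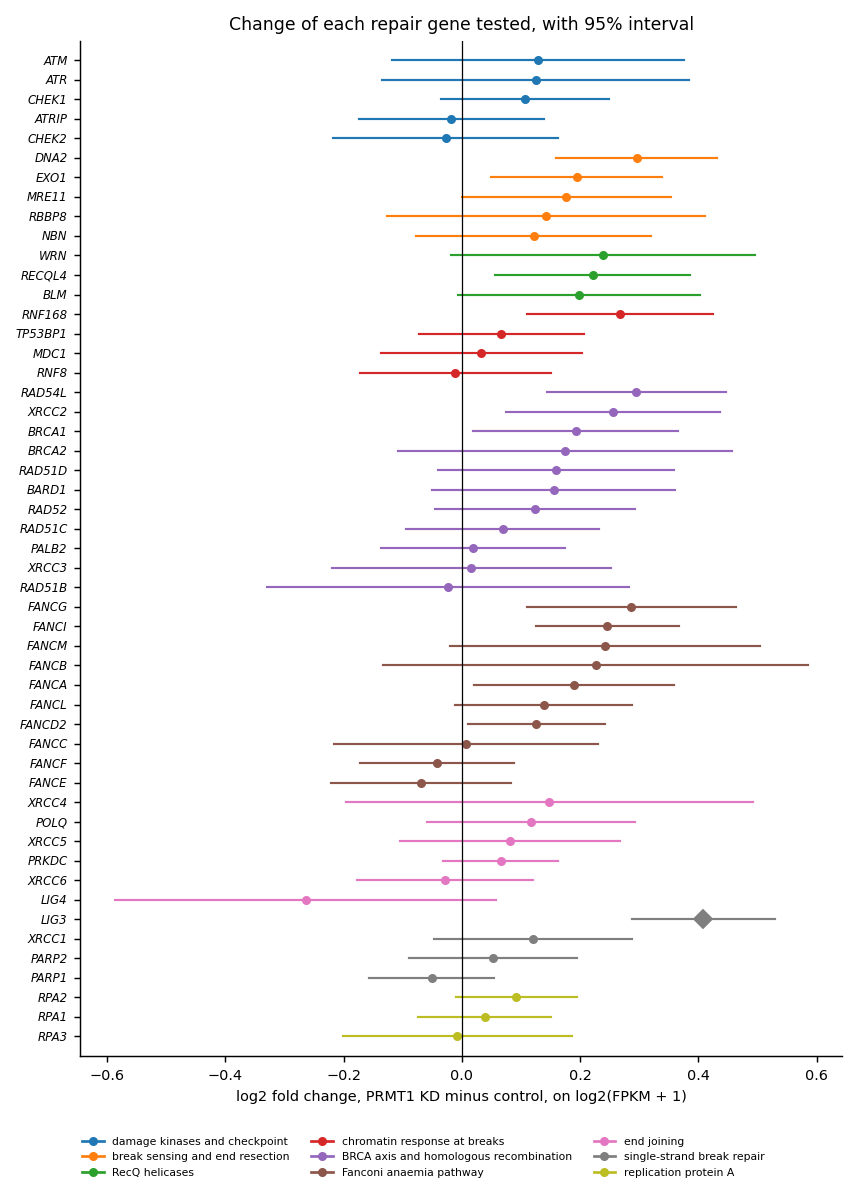
Log2 fold change of each of the 51 genes tested (PRMT1 KD minus control, on log2(FPKM + 1)), with its 95% interval from limma, coloured and ordered by role. The diamond marks LIG3, the single member with an adjusted p under 0.05, at 0.41. 41 points lie to the right of the line at 0 and 10 to the left.

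Single-strand break repair held the member that rose. LIG3, the DNA ligase that works with XRCC1 in the nucleus and is the ligase of mitochondria, was at 10.9, 11.1 and 10.2 FPKM in control and at 14.4, 14.6 and 14.6 FPKM in PRMT1 KD libraries. All 3 PRMT1 KD libraries were above all 3 control libraries and lay close together. The mean rose 1.36-fold, from 10.7 ± 0.498 to 14.6 ± 0.111 FPKM (SD, n = 3 each), a log2 fold change of 0.41 (95% interval 0.29 to 0.53, limma adjusted p = 0.0240). Between 2168 and 3077 reads lay on LIG3 in a library. The exact permutation test gave a two-sided p of 0.1, the smallest that 3 libraries against 3 allow, here and for each member whose groups did not overlap. The gene lies at chr17:34980494-35009743 on the plus strand, and 29.1% of its exon bases are also exon bases of RFFL on the other strand. RFFL was at 4.94 to 5.47 FPKM in control and 5.94 to 6.63 FPKM in PRMT1 KD libraries (limma adjusted p = 0.118). Whether the counting used strand is not given in the sources used here, so reads of LIG3 and RFFL on the shared bases cannot be told apart. With single libraries left out, the call remained only without control replicate 3. The adjusted p of limma was 0.131 without control replicate 1, 0.0897 without control replicate 2 and 0.0497 without control replicate 3. It was 0.0735, 0.111 and 0.0634 without PRMT1 KD replicates 1, 2 and 3, and the log2 fold change stayed between 0.37 and 0.43 in all 6. Calls over all genes also fell, from 145 higher and 134 lower to 4 to 44 higher and 9 to 50 lower. Loss of the call was therefore not particular to LIG3.

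The other members of this role had smaller differences. PARP1, the sensor that marks nicks with poly(ADP-ribose), was at 49.2, 51.8 and 47.7 FPKM in control and at 47.4, 48.2 and 47.8 FPKM in PRMT1 KD libraries. Its groups overlapped, and its log2 fold change was -0.051 (95% interval -0.16 to 0.055, limma adjusted p = 0.574). PARP2, its homologue, was at 0.053 and XRCC1, the scaffold that carries LIG3, at 0.12 on the log2 fold change scale, and neither passed the test. XRCC1 was at 8.80 to 10.2 FPKM in control and 9.98 to 11.1 FPKM in PRMT1 KD libraries, so the partner of LIG3 overlapped between groups.

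**Figure D3:**
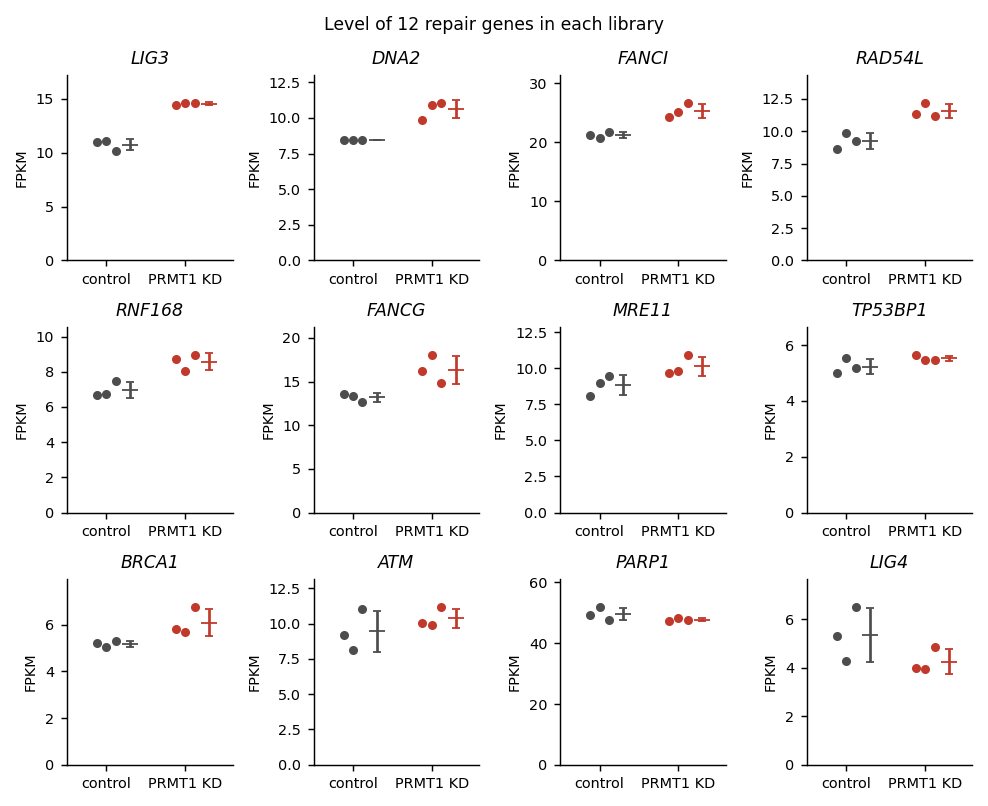
FPKM of 12 members in each library (points), with the mean and SD of each group beside them (bar and whisker, n = 3), on axes that start at 0. For LIG3 the PRMT1 KD libraries lie at 14.4 to 14.6 FPKM, above control libraries at 10.2 to 11.1. The groups also lie apart for DNA2, FANCI, RAD54L, RNF168, FANCG, MRE11 and BRCA1, and overlap for TP53BP1, ATM, PARP1 and LIG4. LIG3, DNA2, FANCI, RAD54L, RNF168 and FANCG are the members with the smallest limma p, so the 12 do not represent all members. Groups lay apart for 17 of the 51 members tested.

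Promoter sequences were compared because 41 of the 51 members had estimates in the same direction. RefSeq windows (GRCh38.p14) of 250 bases before the annotated start were found for 44 of the 53 genes. DNA2, FANCI and RECQL4, each with the smallest p of its role, were among those without a window. The windows were searched on both strands for 4 short promoter motifs, with overlapping matches kept. They were the cell cycle homology region TTTGAA, an E2F site (TTTCCCGC, TTTGGCGC, TTTGCCGC or TTTCGCGC), the CCAAT box and the GC box GGGCGG. LIG3 is shown as the member that passed the test, and RAD54L and RNF168 as the members with the smallest p in their roles, a choice made after their values were seen. Capitals mark every motif match, on either strand. The windows are chr17:34980262-34980511 (plus strand), chr1:46247438-46247687 (plus strand) and chr3:196503769-196504018 (minus strand), each written 5′ to 3′ along the gene.
LIG3: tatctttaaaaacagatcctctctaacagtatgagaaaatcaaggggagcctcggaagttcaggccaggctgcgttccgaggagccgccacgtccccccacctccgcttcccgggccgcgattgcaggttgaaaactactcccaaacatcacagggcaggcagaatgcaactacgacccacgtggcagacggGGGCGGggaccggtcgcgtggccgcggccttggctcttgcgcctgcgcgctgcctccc
RAD54L: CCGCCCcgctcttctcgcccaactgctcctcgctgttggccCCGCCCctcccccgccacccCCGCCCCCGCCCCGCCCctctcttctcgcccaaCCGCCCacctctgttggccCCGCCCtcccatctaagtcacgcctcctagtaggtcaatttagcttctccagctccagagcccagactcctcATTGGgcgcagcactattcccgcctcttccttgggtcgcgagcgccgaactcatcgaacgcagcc
RNF168: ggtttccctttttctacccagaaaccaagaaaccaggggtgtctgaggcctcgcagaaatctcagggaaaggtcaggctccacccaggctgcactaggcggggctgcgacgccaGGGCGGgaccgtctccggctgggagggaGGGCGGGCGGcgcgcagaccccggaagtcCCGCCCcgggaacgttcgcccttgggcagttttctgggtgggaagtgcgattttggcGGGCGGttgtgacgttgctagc
In the windows shown, LIG3 held 1 GC box and no other match, RAD54L held 7 GC boxes and 1 CCAAT box, and RNF168 held 5 GC boxes. A second annotated start of RAD54L had a window at chr1:46247513-46247762, with 2 GC boxes and 2 CCAAT boxes. Over the 44 members with a window, TTTGAA stood in 11.4%, an E2F site in 4.55% (2 genes), a CCAAT box in 45.5% and GGGCGG in 77.3%. Among the 8491 genes tested that had a window, these shares were 11.3%, 5.96%, 42.3% and 73.9%. Among all genes with a window they were 16.1%, 3.40%, 37.0% and 46.2%. The members' shares were therefore close to those of expressed genes, while 18 proliferation markers with a window held an E2F site in 38.9% and a CCAAT box in 83.3%. A match is a stretch of letters and says nothing on binding. Bases after the start were not searched, so sites there would be missed.

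Break sensing and end resection, the steps that recognise a broken end and trim it to single-stranded DNA, had 5 members tested and none past the adjusted test. All 5 had log2 fold changes above 0, with a median of 0.18, and 3 were higher at an unadjusted p under 0.05, against 10.1% of all genes. DNA2, a nuclease and helicase of long-range resection, was at 8.45, 8.47 and 8.45 FPKM in control and at 9.88, 10.9 and 11.1 FPKM in PRMT1 KD libraries. Its groups lay apart, and its control libraries were nearly identical. The log2 fold change was 0.30 (95% interval 0.16 to 0.43, limma adjusted p = 0.0570).

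MRE11, the nuclease subunit whose protein PRMT1 methylates, was at 8.09, 8.95 and 9.48 FPKM in control and at 9.66, 9.78 and 10.9 FPKM in PRMT1 KD libraries. The groups did not overlap, but the highest control library lay close to the lowest PRMT1 KD library. The log2 fold change was 0.18 (95% interval 0.00064 to 0.35, limma adjusted p = 0.254), so no change passed the test. EXO1, another resection nuclease, had 0.19, RBBP8 (CtIP), which starts resection, 0.14 and NBN, the subunit that brings in ATM, 0.12 as log2 fold changes. Of these, EXO1 had groups that did not overlap.

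The damage kinases and checkpoint kinases showed no member past the test, and no unadjusted p under 0.05 among 5. Of all genes, 10.1% were higher and 9.47% lower at that p, so few would be looked for among 5. ATM, the kinase of double-strand breaks, was at 9.16, 8.16 and 11.03 FPKM in control and at 10.03, 9.91 and 11.2 FPKM in PRMT1 KD libraries. Control libraries spread more than the groups differed, and the log2 fold change was 0.13 (95% interval -0.12 to 0.38, limma adjusted p = 0.540). ATR, the kinase of stalled forks, was at 3.42, 3.14 and 4.08 FPKM in control and 4.06, 3.41 and 4.39 FPKM in PRMT1 KD libraries, with overlapping groups. Its log2 fold change was 0.12 (95% interval -0.13 to 0.38, limma adjusted p = 0.575).

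CHEK1, the kinase that ATR activates, had the smallest p of this role. It was at 4.54, 4.83 and 4.75 FPKM in control and at 5.02, 5.03 and 5.396 FPKM in PRMT1 KD libraries. Its groups lay apart, with a log2 fold change of 0.11 (95% interval -0.035 to 0.25, limma adjusted p = 0.378). ATRIP, the partner of ATR, had -0.018 and CHEK2, the kinase that ATM activates, -0.027 as log2 fold changes. For CHEK2, a transcribed pseudogene carried reads equal to 22.7% of those of the gene, so part of its count is uncertain.

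In the chromatin response, in which ubiquitin marks next to a break recruit repair factors, none of 4 members passed the test. RNF168, the ubiquitin ligase that marks histone H2A, was at 6.69, 6.71 and 7.48 FPKM in control and at 8.72, 8.05 and 8.95 FPKM in PRMT1 KD libraries. Its groups lay apart, and its log2 fold change was 0.27 (95% interval 0.11 to 0.42, limma adjusted p = 0.0968). TP53BP1, the reader of that mark and a protein PRMT1 methylates, was at 4.997, 5.52 and 5.18 FPKM in control and at 5.65, 5.46 and 5.47 FPKM in PRMT1 KD libraries. The groups overlapped, with a log2 fold change of 0.067 (95% interval -0.073 to 0.21, limma adjusted p = 0.579). The upper end of that interval is a 1.15-fold change, and 28.7% of the exon bases of TP53BP1 are shared with TUBGCP4 on the other strand. RNF8, the ligase ahead of RNF168, had -0.011 and MDC1, the adaptor on phosphorylated H2AX, 0.033.

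The RecQ helicases, which unwind recombination intermediates, were all above 0. RECQL4 was at 41.7, 45.9 and 40.5 FPKM in control and at 52.3, 51.6 and 46.0 FPKM in PRMT1 KD libraries. The lowest PRMT1 KD library and the highest control library were almost level. Its log2 fold change was 0.22 (95% interval 0.057 to 0.39, limma adjusted p = 0.148), with 0.24 for WRN and 0.20 for BLM, the helicases of Werner and Bloom syndromes. None of the 3 passed the test.

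Of 11 members of the BRCA axis and homologous recombination, 10 had log2 fold changes above 0, with a median of 0.16, and none passed the test. RAD54L, a motor protein of strand invasion, was at 8.65, 9.87 and 9.23 FPKM in control and at 11.3, 12.2 and 11.2 FPKM in PRMT1 KD libraries. The groups lay well apart, and the log2 fold change was 0.30 (95% interval 0.14 to 0.45, limma adjusted p = 0.0715). Of its exon bases, 25.1% are shared with LRRC41 on the other strand, whose log2 fold change was -0.045.

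BRCA1, the ubiquitin ligase that promotes resection and recombination, was at 5.22, 5.04 and 5.30 FPKM in control and at 5.82, 5.68 and 6.75 FPKM in PRMT1 KD libraries. Replicate 3 of PRMT1 KD stood above the other two. The log2 fold change was 0.19 (95% interval 0.019 to 0.37, limma adjusted p = 0.214). BRCA2, which acts after resection at the start of strand exchange, was at 2.91, 2.28 and 3.06 FPKM in control and at 3.00, 2.91 and 3.79 FPKM in PRMT1 KD libraries. Its groups overlapped, and its log2 fold change was 0.17 (95% interval -0.11 to 0.46, limma adjusted p = 0.471).

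The recombination factors RAD51B, RAD51C, RAD51D, XRCC2 and XRCC3, which form complexes with each other, had estimates on both sides of 0. XRCC2 had a log2 fold change of 0.26 and groups that lay apart, with RAD51D at 0.16, RAD51C at 0.069, XRCC3 at 0.016 and RAD51B at -0.023. For XRCC3, 76.7% of the exon bases are shared with KLC1 on the other strand, so its reads are uncertain. BARD1, the partner of BRCA1, had 0.16, the annealing factor RAD52 0.12, and PALB2, the bridge between BRCA1 and BRCA2, 0.018.

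In the Fanconi anaemia pathway, 8 of 10 members had log2 fold changes above 0, with a median of 0.16, and 4 were higher at an unadjusted p under 0.05, with groups that lay apart. Of all genes, 10.1% were higher at that p and 13.6% had groups apart with PRMT1 KD higher. FANCI, the partner of FANCD2 on crosslinked DNA, was at 21.3, 20.7 and 21.7 FPKM in control and at 24.3, 25.1 and 26.7 FPKM in PRMT1 KD libraries. Its log2 fold change was 0.25 (95% interval 0.13 to 0.37, limma adjusted p = 0.0646). FANCD2, which is ubiquitinated together with FANCI, had 0.13. Within the core complex that ubiquitinates both, FANCG had 0.29, FANCB 0.23, FANCA 0.19, FANCL, the ligase subunit, 0.14, FANCC 0.0071, FANCF -0.042 and FANCE -0.069. FANCM, the anchor of the core complex on DNA, had 0.24. Subunits of this complex thus ranged from -0.069 to 0.29, and none passed the test.

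End joining was the role with the lowest estimate. LIG4, the ligase of classical end joining, was at 5.29, 4.28 and 6.48 FPKM in control and at 3.98, 3.93 and 4.85 FPKM in PRMT1 KD libraries. The control libraries spread widely and the groups overlapped. Its log2 fold change was -0.26 (95% interval -0.59 to 0.058, limma adjusted p = 0.341). PRKDC, the catalytic subunit of DNA-PK, was at 58.5, 58.1 and 55.3 FPKM in control and at 59.4, 60.6 and 60.0 FPKM in PRMT1 KD libraries, 13450 to 15116 reads each. The groups lay apart by a narrow gap, with a log2 fold change of 0.066 (95% interval -0.032 to 0.16, limma adjusted p = 0.434).

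The Ku subunits overlapped between groups. XRCC6 (Ku70) was at 155, 166 and 149 FPKM in control and at 143, 158 and 161 FPKM in PRMT1 KD libraries, a log2 fold change of -0.029 (95% interval -0.18 to 0.12, limma adjusted p = 0.846). XRCC5 (Ku80) was at 78.1, 77.9 and 74.0 FPKM in control and at 72.5, 81.7 and 90.2 FPKM in PRMT1 KD libraries. Its log2 fold change was 0.081 (95% interval -0.11 to 0.27, limma adjusted p = 0.614), and its PRMT1 KD libraries spread on both sides of the control libraries. XRCC4, the scaffold of LIG4, had 0.15, and POLQ, the polymerase of microhomology-mediated joining, 0.12.

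Replication protein A, the trimer that coats single-stranded DNA, had small estimates. RPA2 was at 29.2, 29.7 and 28.1 FPKM in control and at 30.4, 31.3 and 31.2 FPKM in PRMT1 KD libraries. Its groups lay apart, with a log2 fold change of 0.092 (95% interval -0.010 to 0.19, limma adjusted p = 0.299). RPA1 had 0.038 and RPA3 -0.0080, so no subunit passed the test.

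The members' excess over control was not equal in the 3 PRMT1 KD libraries. The median difference of the 51 members from the control mean, on log2(FPKM + 1), was 0.088 in replicate 1, 0.075 in replicate 2 and 0.16 in replicate 3 of PRMT1 KD. Replicate 3 was the highest PRMT1 KD library for 33 of the 51 members, 64.7%, and for 39.8% of all genes tested. In the heat map of the library differences, WRN, FANCB, XRCC2, BRCA2, RBBP8 and XRCC4 are darker in that library than in the other two PRMT1 KD libraries. LIG3 had nearly the same value in all 3 PRMT1 KD libraries, and RECQL4, FANCA and MDC1 were lowest in replicate 3 of PRMT1 KD. The median SD within groups was 0.088 for the members and 0.10 for all genes tested on this scale.

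**Figure D4:**
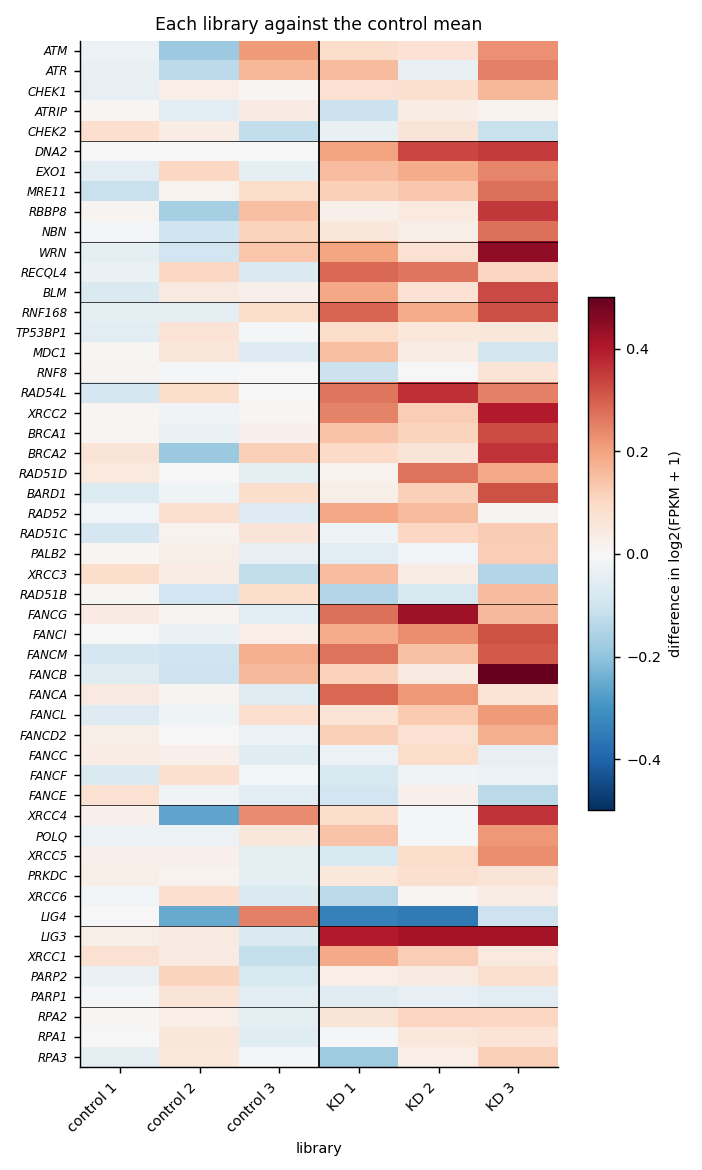
Difference of each library from the mean of the control libraries on log2(FPKM + 1), for the 51 genes tested (rows, grouped by role) in 3 control and 3 PRMT1 KD libraries (columns), red above and blue below the control mean. LIG3 is dark red in all 3 PRMT1 KD libraries, and the column of PRMT1 KD replicate 3 is the reddest, with a median of 0.16 against 0.088 and 0.075 in the other two.

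The remaining repair pathways were read from lists of 124 further genes, of which 118 were tested. None rose and 2 fell past the threshold, and at an unadjusted p under 0.05 there were 13 higher and 8 lower. Of all genes, 2.05% passed the threshold in either direction, and 10.1% were higher and 9.47% lower at the unadjusted p. The log2 fold changes of the 118 genes were above 0 in 78 and below 0 in 40, with a median of 0.051. Of all genes, 52.6% were above 0. PAXX, a paralogue of XRCC4 that stabilises Ku at ends, was at 34.9, 36.9 and 34.4 FPKM in control and at 27.7, 28.9 and 27.7 FPKM in PRMT1 KD libraries. It fell by 0.32 on the log2 scale (limma adjusted p = 0.0322). FIGNL1, an ATPase of homologous recombination, was at 17.2, 16.4 and 17.6 FPKM in control and at 12.7, 12.6 and 14.0 FPKM in PRMT1 KD libraries. It fell by 0.36 on the log2 scale (limma adjusted p = 0.0390). All 3 PRMT1 KD libraries were below all 3 control libraries for both genes. Both calls were lost when any single library was left out, with limma adjusted p of 0.0594 to 0.144 for PAXX and 0.0627 to 0.170 for FIGNL1. The log2 fold change stayed between -0.34 and -0.29 for PAXX and between -0.40 and -0.33 for FIGNL1. Calls over all genes fell in these fits too.

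By list, the median log2 fold change was 0.13 for translesion synthesis (11 of 12 genes above 0), 0.11 for checkpoint clamp and adaptor genes (12 of 14) and 0.091 for other recombination genes (14 of 21). It was 0.051 for mismatch repair (5 of 7) and 0.051 for effectors and partners of TP53BP1 (6 of 9). Base excision repair had 0.017 (12 of 21), other Fanconi genes 0.016 (5 of 9), nucleotide excision repair 0.0061 (11 of 20) and other end joining genes -0.096 (2 of 5). PAXX was the single call among other end joining genes and FIGNL1 among other recombination genes, with 0 calls in the other 7 lists.

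**Figure D5:**
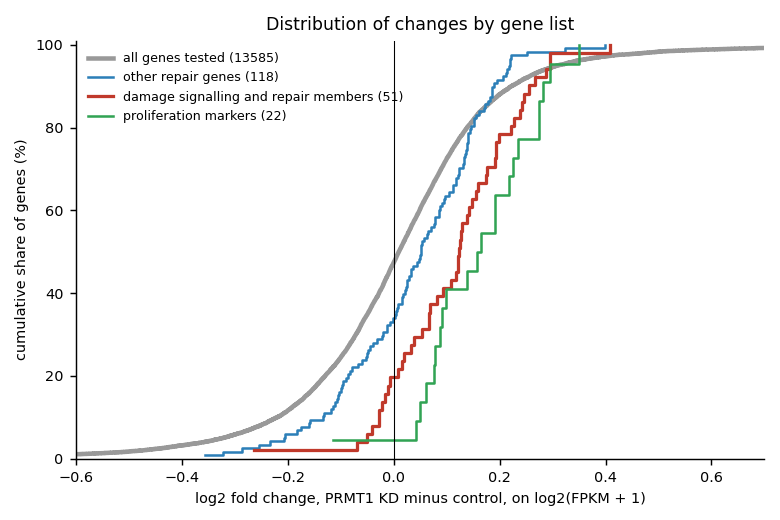
Cumulative share of genes (percent) against log2 fold change, PRMT1 KD minus control on log2(FPKM + 1), for the 51 members (red), 118 other repair genes (blue), 22 proliferation markers (green) and all 13585 genes tested (grey). The curve of the members crosses the middle at 0.12, between the other repair genes at 0.051 and the proliferation markers at 0.16, with all genes at 0.0095.

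Proliferation markers were read beside the members. Of 22 markers, all tested and none at 0, 21 had log2 fold changes above 0, 11 had PRMT1 KD libraries above all control libraries (13.6% of all genes), and the median was 0.16. Their summed level was 926 to 964 FPKM in control and 1047 to 1099 FPKM in PRMT1 KD libraries. Of these, 4 rose past the threshold, as did 1.07% of all genes. The 4 were RRM2, a ribonucleotide reductase subunit (0.35, limma adjusted p = 0.0377), the cyclins CCNA2 (0.28, limma adjusted p = 0.0404) and CCNB1 (0.27, limma adjusted p = 0.0477), and MKI67 (0.29, limma adjusted p = 0.0484). Each of these calls was lost whichever library was left out, with limma adjusted p between 0.0668 and 0.190. Calls over all genes also fell in these fits. With the replicate number as a term, limma gave an adjusted p of 0.0581 for CCNB1 and 0.0532 for MKI67. The part of proliferation in the values of the repair genes was not tested.

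Targets of p53, the transcription factor that damage kinases activate, were split: of 22 listed, 18 were tested, 9 were above 0 and 9 below, and the median was -0.015. TP53INP1 was at 54.5, 51.8 and 54.8 FPKM in control and at 70.4, 70.3 and 73.4 FPKM in PRMT1 KD libraries, and rose by 0.40 on the log2 scale (limma adjusted p = 0.0154). FAS, a death receptor, was at 2.90, 2.57 and 3.27 FPKM in control and at 5.17, 4.88 and 5.25 FPKM in PRMT1 KD libraries, and rose by 0.64 (limma adjusted p = 0.0263). Both calls remained only without control replicate 3 and were lost without each of the other libraries, with limma adjusted p between 0.0521 and 0.135. Fits with a library left out made fewer calls over all genes as well. Repair genes whose proteins are known PRMT1 substrates were BRCA1, MRE11, TP53BP1 and POLB, with a median of 0.12. POLB, the polymerase of base excision repair, had a log2 fold change of -0.12 and PRMT1 KD libraries below all control libraries, and none of the 4 passed the test.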

How the data were processed

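RNA was extracted with TRIzol and sequenced by a company. The authors deposited FPKM values for 58735 genes in 6 MM.1S libraries, with gene length and coordinates. The submitters' processing notes name featureCounts 1.5.0-p3 and hg38. The aligner, the annotation release and the use of strand are not given in the sources used here. All 58735 identifiers are in GENCODE 29, 58724 with the same start and end, and the lengths of the 53 members equal their GENCODE 29 exon union. Reads were worked back from FPKM and gene length, and 100% of values came out whole (within 0.01 reads). The divisor of each library equals its size factor times a common total, so the deposited values were already scaled between libraries.

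Groups came from the labels. Genes with a mean of at least 1 FPKM entered a limma fit (version 3.58.1, R 4.3.3) of log2(FPKM + 1), with empirical Bayes moderation that follows the mean-variance trend. Tests were two-sided with Benjamini-Hochberg adjustment over 13585 genes. The fit had no pairing, as in the study. Deviations of libraries with the same replicate number correlated by 0.0200, 0.0631 and 0.101, against -0.0751 to 0.0186 for different numbers. The main fit did not take the numbers to pair libraries, and these small values do not settle whether they do. A fit with the replicate number as a term is given among the alternatives. Intervals are 95% intervals of the fit. Exact permutation tests used all assignments of the libraries. Alternatives covered the pseudocount, filters, scaling, the variance model, voom on the reads worked back, the replicate block and each library left out.

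The members, roles, further lists and named genes were chosen with earlier results of these data known. Named with full values are members past an adjusted p under 0.05, known PRMT1 substrates, the lead gene and the smallest p of each role, the highest and lowest levels, members under the filter, and calls in the other lists. Other members are given by their log2 fold change. Exon sharing came from GENCODE 29 and promoter windows from RefSeq (GRCh38.p14). Results on 1 of the other repair genes, which was under the filter, are not reported here, and it is left out of the comparison by exon sharing.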

Additional observations from a re-analysis of the deposited data

How the results depend on the processing

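PRMT1 stayed lower and past the threshold under all alternatives run, between -2.16 and -2.09 with each library left out. The number of members past the threshold, all of them higher, was 1 in the analysis reported. It was 0 without the filter on low values and 0 with empirical Bayes without trend. Over all genes, calls were 15 higher and 20 lower of 34078 without the filter, and 15 and 28 of 13585 without trend. The number of members was 4 with a mean FPKM of at least 5 (LIG3, DNA2, FANCI and RAD54L) and 3 after rescaling to TPM (LIG3, DNA2 and FANCI). It was 6 with voom on the reads worked back (LIG3, DNA2, FANCI, RAD54L, FANCG and RNF168) and 13 at an unadjusted p. All-gene calls rose too: 252 higher and 221 lower of 7710 at a mean FPKM of at least 5. They were 222 and 133 of 13585 with TPM and 526 and 401 of 13585 with voom. At an unadjusted p, 10.1% of all genes were higher and 9.47% lower. With each library left out, 0 to 1 members passed, while calls over all genes fell to 4 to 44 higher and 9 to 50 lower. No member was lower past the threshold in any setting, and 7 to 11 members had a log2 fold change below 0. The 2 other repair genes past the threshold became 0 without the filter, 0 without trend, 4 with TPM, 7 with voom, 21 at an unadjusted p, and 0 to 0 with each library left out. The median log2 fold change of the members was 0.123, between 0.079 (without PRMT1 KD replicate 3) and 0.141 with each library left out, and 0.106 to 0.151 otherwise. Groups that did not overlap numbered 17 members, and 20 to 28 with each library left out, the highest without control replicate 3, where fewer libraries have to lie apart. The share over all genes with a library left out is not given here. The log2 fold change of XRCC6 turned to 0.014 without control replicate 2 and 0.024 without PRMT1 KD replicate 1, in a range from -0.065 to 0.024 with each library left out. With the replicate block, 1 member (LIG3, limma adjusted p = 0.0441) and 2 other repair genes passed. The block ended the calls of CCNB1 (limma adjusted p = 0.0581) and MKI67 (limma adjusted p = 0.0532) and no other call named. Over all genes it gave 105 higher and 99 lower. The standard error went from 0.105 to 0.060 for ATM and from 0.0746 to 0.0445 for MRE11, and from 0.079 to 0.080 for XRCC5. Intervals of some members would thus be narrower if the numbers pair libraries. TPM moved the split of all calls from 145 higher and 134 lower to 222 and 133. The causes of these differences were not tested. Changes within the intervals given could not be resolved.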

Other observations

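Several repair genes that dividing cells use were listed under 1 FPKM, and 5 of them had an annotation feature in common that was noticed after their values were seen. Among the members and the other repair genes considered here, 6 shared over 50% of their exon bases with another gene on the same strand: RAD50, NHEJ1, RAD54B, ERCC5, GTF2H4 and CENPS. Of these 6 genes, 5 had a mean under 1 FPKM, and the median level of the 6 was 0.587 FPKM. Among the 170 other repair genes considered, 2 (APLF at 0.729 FPKM and ERCC6 at 0.695 FPKM) were under 1 FPKM, and the median level was 8.25 FPKM. ERCC5, the nuclease of nucleotide excision repair, had 0.506 FPKM and shared 63.3% with the readthrough gene BIVM-ERCC5, listed at 0. GTF2H4, a TFIIH subunit, had 0.667 FPKM and shared 79.0% with VARS2, at 10.8 FPKM. How reads on shared bases were counted was not tested. CENPS passed the filter at 1.23 FPKM.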
